A study of Rattus norvegicus with 2 samples.

Results

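Close FOSL1-FLAG peak pairs were taken from the peaks on the 20 rat autosomes. They were selected on the positions of peak summits alone: a peak was kept when the nearest other summit on its chromosome lay at most 500 bp away, and peaks in chains of 5 or more summits, each at most 5000 bp from the next, were left out. Of 103261 autosomal peaks (104960 in the whole list), 3642 peaks met this rule, or 3.53% (exact 95% binomial interval 3.42 to 3.64%). They formed 1762 pairs, 38 groups of 3 and 1 group of 4, so 3524 peaks (96.8%) stood in pairs. A further 1341 peaks had a summit within 500 bp but lay in the longer chains and were left out. Among these were peaks 24694 and 100680, which the paper numbers at EPHB2: their summits were 332 bp apart, but they belonged to a chain of 6 summits. At each summit the fold, the number of ChIP fragments, the local background and the q-value played no part in the choice.

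Anti-FLAG ChIP was sequenced as 1 library beside 1 library of input, which is chromatin that is not immunoprecipitated and serves as the background. Both came from primary Schwann cells of newborn rat sciatic nerve with a WT genotype, and both received a lentiviral CMV-FOSL1-3Flag construct that also encodes EGFP and puromycin resistance, in which the viral CMV promoter drives tagged FOSL1. Cells were cultured after fibroblasts had been depleted with an antibody against Thy1.1. No library from cells without tagged FOSL1 and no second ChIP library was analysed here, so no value below has a replicate check. Intervals of fragments cover counting error only, and those of medians, shares and correlations treat peaks as independent. None of them covers differences between libraries. A list of peaks holds no expression values, so the cell type could not be checked against Schwann cell markers. At the median of 14 ChIP fragments per autosomal summit, counting error alone gives an exact 95% Poisson interval of 7.65 to 23.5 fragments.

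FOSL1 belongs to the FOS family of the AP-1 transcription factor. It has no stable homodimer and binds DNA with a JUN family partner at a short palindromic element, and enhancers often hold several such elements next to each other. JUN is a known driver of the repair state that Schwann cells enter after nerve injury. A ChIP peak is wider than the element beneath it, because each sequenced fragment extends beyond the bound site, and peaks as close as these are therefore near the limit at which neighbouring sites can be told apart. The base sequence below the pairs and the genes around them were not analysed here, since the rn6 sequence and annotation were not used.

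Summits within a pair mostly lay in the upper part of the range that the rule allows, and very short distances were rare. The spacing ranged from 146 to 500 bp, with a median of 403 bp (95% interval of the median 398 to 408 bp, from order statistics) and a 5th to 95th percentile of 272 to 492 bp. Only 2 of 1762 pairs had summits at most 200 bp apart and 38 (2.16%, interval 1.53 to 2.95%) at most 250 bp apart. The count rose with distance, from 152 pairs at 251 to 300 bp and 273 at 301 to 350 bp to 400 at 351 to 400 bp, 415 at 401 to 450 bp and 484 at 451 to 500 bp. It did not rise further beyond the limit: counting every adjacent peak outside the long chains, groups of 3 and 4 included, 512 were 451 to 500 bp apart, 511 were 501 to 550 bp apart and 418 were 951 to 1000 bp apart. The limit of 500 bp therefore cut through a continuous distribution. Just inside it, the 105 adjacent peaks at 491 to 500 bp had a median ratio of folds of 1.21 and a median fold of 3.14, and just outside it the 110 at 501 to 510 bp had 1.24 and 3.23.

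**Figure D1:**
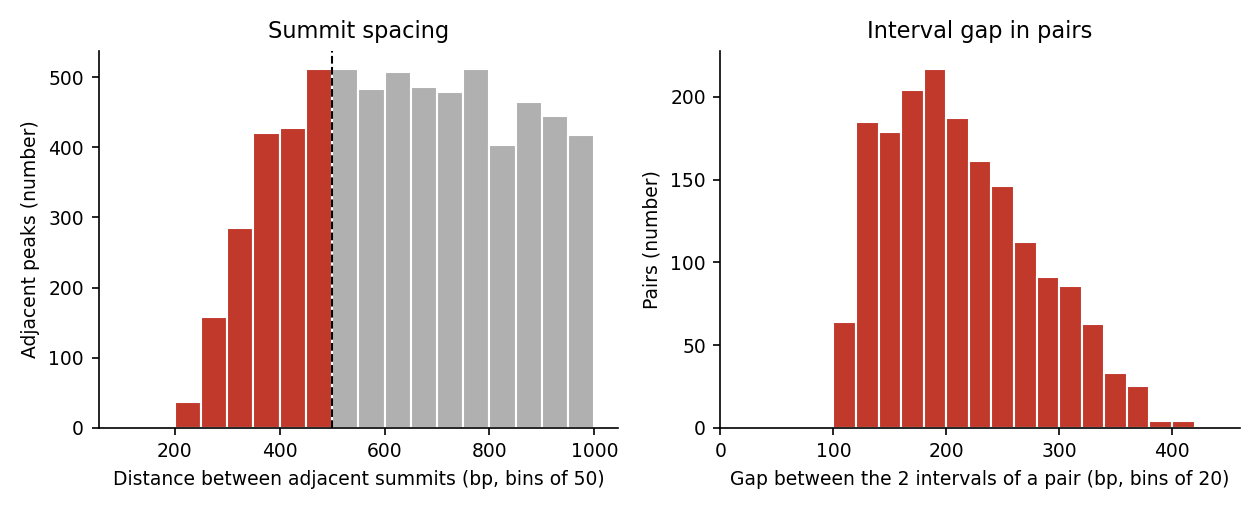
Left, number of adjacent autosomal peaks outside long chains (vertical axis) by the distance between their summits in bins of 50 bp (horizontal axis); red bars lie within 500 bp and include steps inside groups of 3 and 4, grey bars lie beyond, and the dashed line marks 500 bp. Right, number of pairs by the gap between their intervals in bins of 20 bp. Counts climb to 512 in the last red bin and stay at 403 to 512 beyond it, and no gap is under 114 bp.

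The called intervals of a pair never touched. The gap between the end of the left interval and the start of the right one had a median of 202 bp (interval 198 to 207 bp) and a range of 114 to 441 bp. In 76 pairs (4.31%) it was at most 120 bp and in 344 (19.5%) at most 150 bp. The smallest gap was also the smallest between any adjacent peaks on the autosomes, 114 bp, and no interval in the list was narrower than 150 bp. The sources used here do not give the settings of the peak caller, so the scarcity of short spacings and a joining step cannot be told apart. The labels give a size selection of 250 to 450 bp for the libraries. In 1278 pairs (72.5%, interval 70.4 to 74.6%) the summits were at most 450 bp apart, the upper end of that range. Whether single fragments spanned both summits was not tested. From the first to the last base a pair covered a median of 637 bp (range 419 to 1658 bp).

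Summits leaned toward each other inside their intervals, which the rule favours because it selects on summit distance. Of the 3524 summits in pairs, 62.2% lay on the side of their interval facing the other peak, and the share was 85.3% at 146 to 300 bp, 65.5% at 301 to 400 bp and 54.8% at 401 to 500 bp, beside 49.2% for adjacent peaks 501 to 1000 bp apart. A summit on the very first or last base of its interval occurred in 5 members (0.137%) and in 109 of all autosomal peaks (0.106%). Widths were ordinary, with a median of 196 bp in members and 199 bp in all autosomal peaks.

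The peaks of a pair differed in fold by about as much as neighbours farther apart did. Fold here is the authors' deposited value at the summit. It was taken as the scaled ChIP fragments plus 1 over the local background plus 1, a formula assumed for a peak caller that the sources do not name, so it is lower than the plain ratio of the fragments and backgrounds printed here, which were solved from it together with the p-value. The higher fold was a median of 1.21 times the lower (interval 1.20 to 1.22), and the same ratio was 1.22 (1.21 to 1.23) for 4708 adjacent peaks 501 to 1000 bp apart, 1.21 (1.20 to 1.21) at 1001 to 2000 bp, 1.20 (1.20 to 1.20) at 2001 to 5000 bp and 1.21 (1.20 to 1.21) at 5001 to 20000 bp. Within the pairs it was 1.22 at 146 to 300 bp, 1.20 at 301 to 400 bp and 1.21 at 401 to 500 bp. In 491 pairs (27.9%) the folds were within a ratio of 1.1, and in 277 pairs (15.7%) they differed by a ratio of 1.5 or more. These shares were 26.3% and 17.3% at 501 to 1000 bp, and 27.7% and 14.4% at 1001 to 2000 bp. Farther out they were 27.6% and 13.9% at 2001 to 5000 bp, and 26.8% and 14.2% at 5001 to 20000 bp. Across the 1762 pairs, the fold of the left peak and that of the right peak gave a Spearman's rho of 0.0874 (interval 0.0408 to 0.134). Pearson's r on log values was 0.0926. In the 190 pairs at 146 to 300 bp rho was -0.0500, a value without an interval, so a change of sign is not shown there. With a limit of 250 bp in the rule rho was -0.328 (interval -0.584 to -0.0145) over 39 pairs. It was 0.0616 in neighbours at 501 to 1000 bp, 0.0668 at 1001 to 2000 bp, 0.0539 at 2001 to 5000 bp and 0.0226 at 5001 to 20000 bp. The paired peaks share a library, a region and part of their background, and peaks are not replicates, so no p-value is given.

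Fragment counts and local backgrounds were more strongly correlated within pairs than folds were, whereas the ratio of counts was no smaller than that of folds. The ChIP fragments at the summits of a pair gave a Spearman's rho of 0.433, beside 0.353 at 501 to 1000 bp and 0.135 at 5001 to 20000 bp, and the backgrounds gave 0.649, 0.528 and 0.267. The larger count was a median of 1.21 times the smaller in pairs (interval 1.20 to 1.22), 1.20 times (1.20 to 1.21) at 501 to 1000 bp and 1.22 times (1.22 to 1.23) at 5001 to 20000 bp. The median ratio of the backgrounds was 1.14 in pairs (interval 1.11 to 1.15), 1.18 at 501 to 1000 bp (1.17 to 1.19) and 1.25 at 5001 to 20000 bp (1.24 to 1.25). Backgrounds were equal within 0.001 fragments in 163 pairs (9.25%). The correlations of counts and of backgrounds were both lower at greater distance, and the part of the background in that of the counts was not tested. The peak with the higher fold had more fragments in 1273 pairs (72.2%), and the peak with the lower fold had the higher background in 1109 (62.9%). Fold rises with fragments and falls with background by its formula, which favours both majorities. These shares were 68.5% and 65.7% at 501 to 1000 bp, and 63.1% and 64.9% at 5001 to 20000 bp.

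**Figure D2:**
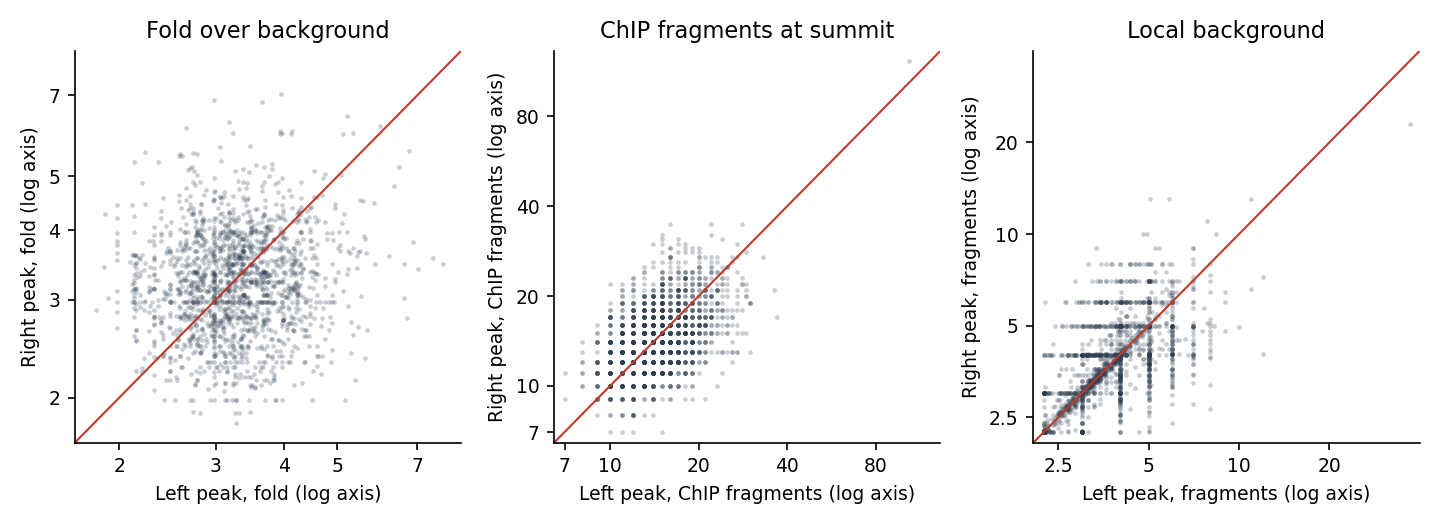
Left peak (horizontal axis) against right peak (vertical axis) of the 1762 pairs, on log axes, for the authors' fold (left panel), ChIP fragments at the summit (middle) and local background in fragments (right); each point is a pair and the red line marks equality. Folds form a round cloud (rho 0.0874), whereas fragments (0.433) and backgrounds (0.649) are stretched along the line; the horizontal and vertical rows in the right panel are backgrounds at whole numbers.

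**Figure D3:**
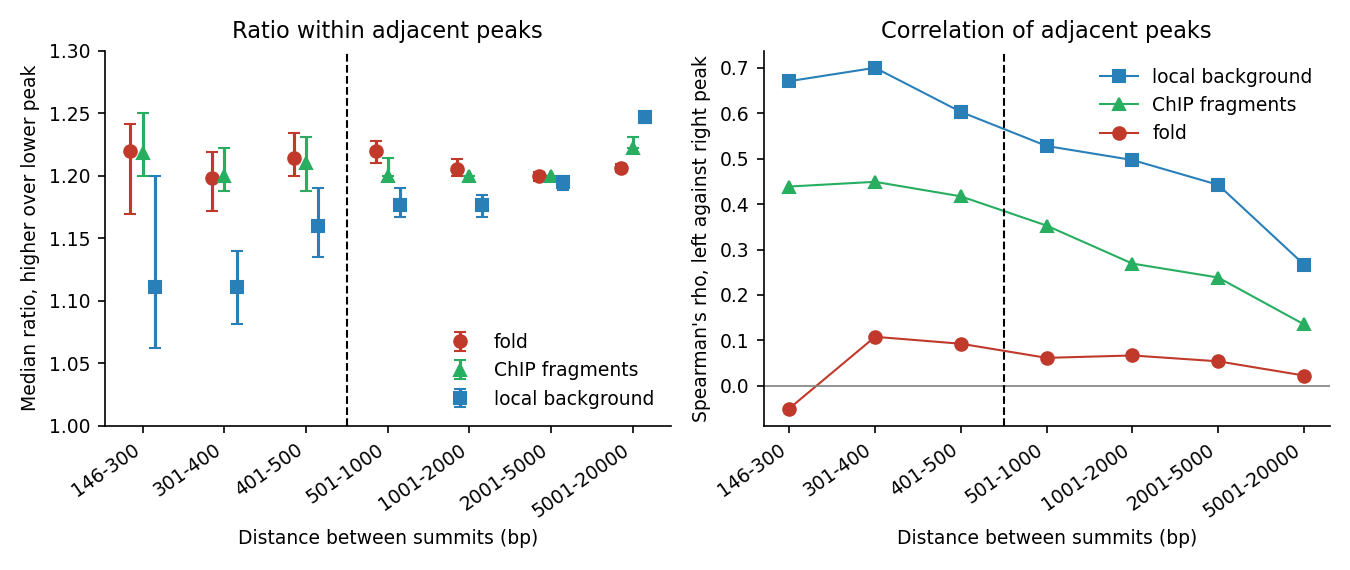
Median ratio of the higher to the lower peak (left, bars are 95% intervals of the median from order statistics) and Spearman's rho between left and right peak (right) for adjacent autosomal peaks outside long chains, by the distance between their summits in bp; the classes left of the dashed line are the pairs. The ratios of folds and of fragments stay between 1.20 and 1.22 in all classes, while the background ratio is 1.11 in the closest pairs and 1.25 at 5001 to 20000 bp.

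For most pairs the difference in fragments was within counting error. The counts were equal in 179 pairs (10.2%), at most 2 apart in 814 (46.2%) and at most 5 apart in 1453 (82.5%), and 66 pairs (3.75%) were 10 or more fragments apart. In 14 pairs (0.795%, interval 0.435 to 1.33%) the exact 95% binomial interval of the left peak's share of the pair's fragments left out an equal split, beside 66 of 4708 adjacent peaks (1.40%, interval 1.09 to 1.78%) at 501 to 1000 bp. At this depth, unequal signal within a pair was thus not detectable in nearly all of them. No listed peak had a −log10 p-value under 2.0035, so low counts were absent in advance, which limits how far 2 counts can differ. These shares therefore do not measure how alike the signal at the 2 sites is. The left peak had the higher fold in 887 pairs (50.3%). The higher fold fell to the wider interval in 829 pairs (47.0%) and to the narrower in 857 (48.6%).

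Members passed the authors' q-value, a p-value adjusted for the number of positions tested, somewhat more often than autosomal peaks in general. Of 3642 members, 2465 had a q-value of at most 0.05 (67.7%, interval 66.1 to 69.2%), compared with 60.7% of all autosomal peaks and 58.2% (57.8 to 58.7%) of the 47961 peaks with no other summit within 5000 bp. A threshold of 0.01 left 1486 members (40.8%), beside 33.8% of all, and one of 1e-05 left 147 members (4.04%, interval 3.42 to 4.73%), beside 1.96% of all. The share at 0.05 was higher in members than in the other peaks on 20 of 20 chromosomes. Fold differed less, with a median of 3.22 in members (5th to 95th percentile 2.27 to 4.58), 3.18 in all autosomal peaks and 3.22 in peaks with no summit within 5000 bp, and the members' median was the higher on 14 of 20 chromosomes. Members had a median of 15 fragments over a background of 3.89 fragments, and peaks with no summit within 5000 bp had 13 over 3.17. The members' median background was higher than that of the other peaks on 19 of 20 chromosomes. With 1 ChIP library no test of these differences could be made.

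Taken pair by pair, both peaks reached a q-value of at most 0.05 in 816 pairs (46.3%, interval 44.0 to 48.7%), 1 of the 2 peaks did in 750 (42.6%) and neither did in 196 (11.1%). Among adjacent peaks 501 to 1000 bp apart, both passed in 41.2% (39.8 to 42.7%) and neither in 13.2%, and at 5001 to 20000 bp both passed in 36.9%. The share with both was 38.9% (32.0 to 46.3%) in the 190 closest pairs, 50.8% (47.0 to 54.7%) at 301 to 400 bp and 44.5% (41.2 to 47.8%) at 401 to 500 bp. At a q-value of at most 1e-05, 10 pairs had both peaks (0.568%, interval 0.272 to 1.04%) and 120 had 1 of the 2 (6.81%, 5.68 to 8.09%). Among adjacent peaks 501 to 1000 bp apart these shares were 0.212% (0.102 to 0.390%) and 6.58% (5.89 to 7.33%), so the intervals of both shares overlapped.

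**Figure D4:**
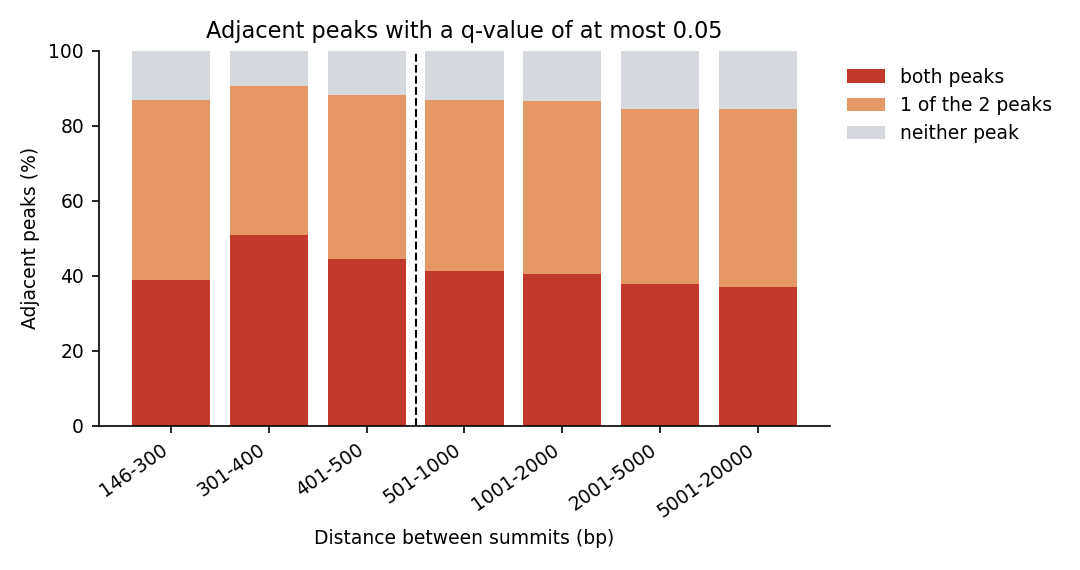
Percentage of adjacent autosomal peaks outside long chains (vertical axis) in which both, 1 or neither of the 2 peaks reached the authors' q-value of 0.05, by the distance between their summits in bp; the classes left of the dashed line are the pairs. Both peaks pass in 50.8% of pairs at 301 to 400 bp and in 36.9% of neighbours at 5001 to 20000 bp.

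High folds were uncommon in the whole list, and few pairs held 2 of them. Both folds were at least 4 in 51 pairs (2.89%) and at least 5 in 7 pairs, while both were under 3 in 259 (14.7%). Taken singly, 14.7% of members and 11.9% of all autosomal peaks had a fold of at least 4. For at least 5 the shares were 2.72% and 1.43%. The share with both peaks high was not computed for farther neighbours. The pair with the highest lower fold lay on chromosome 2 of rn6. Its left peak, from 250235547 to 250235696, had a fold of 5.97, with 24 fragments (Poisson interval 15.4 to 35.7) against a background of 3.15. Its right peak, from 250235948 to 250236129, had a fold of 6.17, with 22 fragments (13.8 to 33.3) against 2.70. The summits were 399 bp apart, the counts could not be separated, and the next summit was 11043 bp away.

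Chromosome 1 held 4 of the 8 pairs ranked highest by this measure. The second pair, from 246110800 to 246111591, had 33 and 27 fragments over backgrounds of 4.0 each, folds of 6.74 and 5.55 and a spacing of 421 bp, with a further summit 578 bp away. The third, from 221644745 to 221645724, had 23 and 24 fragments and folds of 5.35 and 5.97, and its gap of 114 bp equalled the smallest in the list of autosomal peaks. The fifth, from 221791828 to 221792421, had 29 and 22 fragments, folds of 6.47 and 5.20 and summits 350 bp apart. The eighth, from 90521789 to 90522501, had 28 and 22 fragments, folds of 6.36 and 4.80 and summits 390 bp apart. Chromosome 9 held the fourth pair, from 37230976 to 37231630, with 16 and 21 fragments, folds of 5.20 and 6.42 and the next summit 65873 bp away, and the sixth, from 54212013 to 54212858, with 18 and 29 fragments and folds of 5.11 and 5.95. The seventh, on chromosome 3 from 13164972 to 13165618, had 17 fragments in each peak and folds of 5.07 and 5.03. In all 8 pairs the Poisson intervals of the left and right peak overlapped. Among the 100 autosomal peaks of highest fold 12 were members (exact 95% binomial interval 6.36 to 20.02%), and among the first 1000 there were 70, whereas members were 3.53% of all autosomal peaks.

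The most unequal pairs joined a strong peak to one near the threshold. In each of the 5 the weaker peak also had the higher background, which the choice by ratio of folds favours, because background is in the denominator of the fold. The largest ratio of folds, 2.60, was on chromosome 4, where peak 2292 (61326575 to 61326734) had 18 fragments over 2.66 and a fold of 5.16, and peak 104714 (61326887 to 61327176) had 13 over 6.0 and a fold of 1.98. The weaker peak's q-value was 0.530 and its summit fell on the last base of its interval. On chromosome 13, peaks 1035 and 102194 had 21 and 12 fragments over 3.06 and 5.00, with folds of 5.37 and 2.15. On chromosome 1, peaks 100500 and 448 had 14 and 26 fragments over 6.0 and 4.05, with folds of 2.13 and 5.30. On chromosome 8, peaks 90565 and 256, exactly 500 bp apart, had 17 and 28 fragments over 7.0 and 4.20, with folds of 2.23 and 5.53. On chromosome 14, peaks 146 and 74918 had 26 and 13 fragments over 3.00 and 4.0, with folds of 6.69 and 2.78. The weaker peaks of the 5 pairs had q-values of 0.0849 to 0.530, and the Poisson intervals of the 2 peaks overlapped in all 5.

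**Figure D5:**
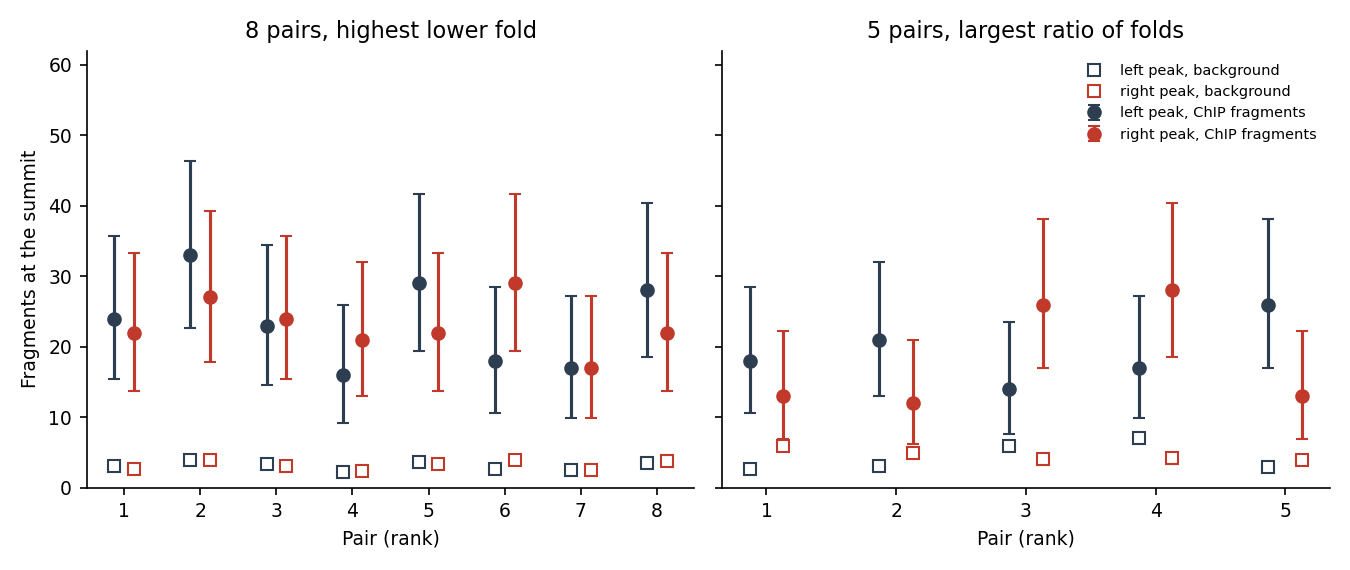
ChIP fragments at the summit (filled circles with exact 95% Poisson intervals) and local background in fragments (open squares) for the left (dark) and right (red) peak of the 8 pairs with the highest lower fold (left panel) and the 5 pairs with the largest ratio of folds (right panel); pairs are in rank order. Backgrounds lie at 2.24 to 4.0 in the left panel, and in the right panel each weaker peak has the higher background, up to 7.0, which choosing pairs by the ratio of folds favours.

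The 5 pairs with the closest summits held peaks of modest fold. With a limit of 250 bp in the rule, the 78 members had a median fold of 3.06 (interval 2.83 to 3.17), beside 3.22 in all members. The smallest spacing, 146 bp, was on chromosome 12 between peaks 104475 (38690959 to 38691162) and 22693 (38691282 to 38691431), with 13 and 21 fragments over backgrounds of 6.0 each and folds of 1.98 and 3.12. The summit of peak 104475 was the last base of its interval, so this spacing rests on a summit at an interval's edge. The next, 197 bp, was on the same chromosome from 37209755 to 37210290, with 20 and 18 fragments and folds of 2.98 and 2.53. Spacings of 203 bp on chromosome 20 (7207763 to 7208306), 206 bp on chromosome 10 (46280644 to 46281062) and 212 bp on chromosome 7 (92879652 to 92880248) followed, with folds of 2.40 to 3.10. Of the 10 peaks in these 5 pairs, 4 had a q-value of at most 0.05, beside 67.7% of all members and 60.7% of all autosomal peaks.

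Slightly fewer pairs stood alone than had further peaks close by. In 848 pairs (48.1%) no other summit lay within 5000 bp of either peak, 578 (32.8%) belonged to a chain of 3 summits and 336 (19.1%) to a chain of 4. The median fold was 3.26 (interval 3.22 to 3.31) in lone pairs, 3.22 (3.17 to 3.25) in chains of 3 and 3.17 (3.14 to 3.22) in chains of 4, with median backgrounds of 3.56, 4.0 and 4.0 fragments. Of their peaks, 67.5%, 67.5% and 68.2% had a q-value of at most 0.05, and the ratio of folds was 1.20, 1.22 and 1.20.

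Members came from every autosome. They were 2.64% of the peaks on chromosome 16 (82 of 3109, exact 95% binomial interval 2.10 to 3.26%), 2.69% on chromosome 2 (2.36 to 3.06%) and 4.39% on chromosome 12 (134 of 3054, 3.69 to 5.18%), with the other chromosomes in between. Across the 20 chromosomes the share rose with the number of peaks per Mb (Spearman's rho 0.773, Pearson's r 0.699, a description over chromosomes of 1 library). The rule favours such a rise, since it selects on summit distance. Median spacing ran from 391.5 to 420 bp, median gap from 190 to 221.5 bp and the median ratio of folds from 1.14 to 1.25 between chromosomes. Spearman's rho of the left and right folds varied in sign, from -0.0980 on chromosome 11 (55 pairs) to 0.235 on chromosome 17 (73 pairs). One pair stood in a region of very high background, a case picked after its values were seen: on chromosome 4, peaks 52 (77410201 to 77410394) and 5 (77410595 to 77410839) had 104 and 123 fragments over backgrounds of 37.0 and 23.0, with folds of 2.74 and 5.12. No other member had a background of 10 times the genome-wide value or more.

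A few groups held more than 2 summits, and the rule admits none above 4, since it leaves out chains of 5 or more. The 38 groups of 3 lay on 15 chromosomes, with steps of 249 bp or more between summits (median 398.5 bp) and a median fold of 3.17. All peaks passed a q-value of 0.05 in 16 of them and none in 1. The group of 3 with the highest lowest fold, on chromosome 10 from 62954309 to 62955317, had 32 (21.9 to 45.2), 19 (11.4 to 29.7) and 23 (14.6 to 34.5) fragments and folds of 5.37, 3.61 and 4.45. The only group of 4, on chromosome 20 from 46199622 to 46201389, had 15, 16, 17 and 13 fragments over backgrounds of 4.38 to 6.0 and folds of 2.55 to 2.81, and 1 of its peaks had a q-value of at most 0.05.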

How the data were processed

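ChIP-seq peaks of the anti-FLAG library were called by the authors against input, with nothing pooled. Per the submitters' processing notes, deepTools 3.3.0, SAMtools 1.7 and Bowtie2 2.2.6 were used; the program that called peaks, and its settings, were not given in any source used here. The same notes list a human build, whereas the deposited sequence names match rat rn6, used here with positions counted from 1. The authors deposited a fold, the −log10 of a p-value and of a q-value, and a score, which in all 104960 peaks repeated the −log10 p-value on a scale of 10 and was not used. Taking fold as scaled fragments plus 1 over background plus 1, and the p-value as a Poisson tail, ChIP fragments and local background were solved in the 104900 peaks on chromosomes 1 to 20 and X, with a ChIP library scaled by 0.991, and every solution met the −log10 p-value to 0.001. Background comes from input and has a genome-wide minimum of 2.24 fragments. The steps were tested on simulated data made with the same formula, which cannot check the formula itself. No simulated step lay between 500 and 5000 bp, so the chain limit was not tried apart from the 500 bp limit. Groups were linked by summits at most 500 bp apart; a pair is a group of exactly 2. Farther neighbours are adjacent peaks outside chains of 5 or more. Intervals (95%) are exact Poisson for fragments, Clopper-Pearson for shares, from order statistics for medians and from Fisher's z for correlations, and treat peaks as independent. No p-value was computed, since peaks are not replicates. Pairs named were the 8 with the highest lower fold, the 5 with the largest ratio of folds, the 5 with the smallest spacing and any at EPHB2; the leading groups of 3 and 4 were named after seeing the data. The members and rules were chosen with earlier results of these data known. The planned motif content was not run. Python 3.11.15, numpy 2.4.6, scipy 1.17.1, pandas 2.3.3 and matplotlib 3.10.9 were used.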

Additional observations from a re-analysis of the deposited data

How the results depend on the processing

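No paired analysis was possible because the ChIP and the input are 1 library each. With summits at most 250 bp apart there were 78 members and 39 pairs, with a median spacing of 238 bp, gap of 135 bp, fold ratio of 1.24 and member fold of 3.06. The fold correlation turned to -0.328 (interval -0.584 to -0.0145) over these 39 pairs. With 1000 bp there were 12468 members and 5334 pairs, with a spacing of 640 bp and a gap of 397 bp. Both sets of counts, spacings and gaps follow from the limit itself. Midpoints in place of summits gave a spacing of 419 bp and a gap of 193 bp. With a q-value of at most 0.05 required before pairing there were 2017 members and 974 pairs, a gap of 196.5 bp, a fold ratio of 1.14, a fold correlation of 0.140 and a member fold of 3.53. With 0.01 there were 871 members and 425 pairs, a spacing of 394 bp, a gap of 195 bp, a ratio of 1.12, a correlation of 0.199 and a fold of 3.84. A q-value filter removes peaks of low fold by construction, and the cause of the smaller ratio and higher correlation was not tested. Of the 56 values recomputed, 30 stayed within the interval of the reported value or, for counts, within 1.5 times, among them all 21 with long chains kept, without high-background peaks or with chromosome X added. Depth limits single pairs: at 14 fragments the Poisson interval is 7.65 to 23.5.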

Other observations

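The rule leaves out close peaks inside the long chains. There were 1341 of them, with 605 groups of exactly 2, a median spacing of 395 bp, a median gap of 192 bp and a median fold ratio of 1.22. Their median fold was 3.21 over a median background of 4.0 fragments, and 68.2% (exact 95% binomial interval 65.6 to 70.6%) had a q-value of at most 0.05.

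On chromosome X the same rule gave 28 of 1639 peaks (1.71%, interval 1.14 to 2.46%) in 14 pairs, with a median spacing of 419 bp, a median gap of 241 bp and a median fold ratio of 1.17. Their median was 12 fragments over a background of 2.52. The pair of highest folds on X, from 1288882 to 1289405, was picked after its values were seen. Its summits were 376 bp apart, with 19 and 17 fragments and folds of 5.83 and 5.03.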
